A study of Mus musculus with 12 samples.

Results

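The genes of the dystrophin complex and caveolin 3 were examined in the hearts of MHC-CELFΔ mice through 8 symbols: Dmd, Utrn, Dag1, Sgca, Sgcb, Sgcd, Dtna and Cav3. Every array probe annotated with one of these symbols was taken, whatever its value, which gave 25 of 45281 probe IDs. Many IDs carried the very same values across the 12 arrays and were joined, leaving 9 of 30854 distinct features. Of the 7 genes with over 1 ID, 6 had the same values at all of their IDs, and the same was seen for 6463 (70.5%) of the 9172 symbols with over 1 ID. Splice forms of these genes could therefore not be read apart from probe to probe, except for Dtna, which kept 2 features.

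MHC-CELFΔ mice make a nuclear dominant negative CELF protein, which blocks a family of splicing regulators, under a mouse α-myosin heavy chain promoter that is active in heart muscle cells after birth. Hemizygous females of 2 lines on the FVB/N background were studied at 3 weeks of age: MHC-CELFΔ-574, called the mild line, with a lower level of the transgenic protein, and MHC-CELFΔ-10, called the severe line, with a higher level. Total RNA of 1 whole heart went onto each Illumina MouseWG-6 v2.0 array, with 3 mild line hearts, 3 severe line hearts and 6 hearts of wild type female littermates, 3 from the litters of each line, called mild litters and severe litters here. Each severity is a single line, so the transgene level and the line cannot be told apart, and whole hearts hold cells that do not make the transgenic protein.

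Dystrophin ties actin filaments inside the muscle cell to dystroglycan in the membrane, and dystroglycan binds laminins and other matrix proteins outside. The sarcoglycans hold this assembly together and dystrobrevin recruits signaling proteins to it, while caveolin 3 forms the caveolae of muscle membranes and binds dystroglycan. Loss of several of these proteins causes muscular dystrophy and cardiomyopathy in man and mouse.

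Values are log2 signals after background correction and quantile normalization, with a median of 6.28 over all features, and each array read is 1 heart. The files hold no detection p-values, so a feature near that median cannot be called present or absent. Raw array medians lay at 106 to 110 for mild line hearts, at 120 to 123 for severe line hearts, at 110 to 117 for wild type hearts of mild litters and at 106 to 113 for wild type hearts of severe litters. The cardiac muscle list (Myh6, Tnni3, Actc1, Myl2 and Ryr2) was bright on every array, and its mean log2 signal spanned 12.91 to 12.93 in mild line hearts, 12.87 to 12.95 in severe line hearts and 12.85 to 13.21 in wild type. The list of 6 skeletal muscle genes had means of 6.42 to 6.5 in mild line hearts, 6.36 to 6.41 in severe line hearts and 6.43 to 6.57 in wild type, with 2 of its 6 genes above the median of all features. One of them, Tnni2, the fast skeletal troponin I, was lower in both lines, at 7.44 to 7.89 in mild line hearts (-0.59, FDR = 0.0164) and 7.43 to 7.94 in severe line hearts (-0.53, FDR = 0.0351), against 7.97 to 8.65 in wild type. The mild line's call ended without mild line replicate 2 (-0.49, FDR = 0.155) or 3 (-0.57, FDR = 0.0829) and the severe line's without severe line replicate 1 (-0.56, FDR = 0.115) or 3 (-0.39, FDR = 0.232), or without wild type replicate 2 of the mild (-0.55, FDR = 0.0525) or of the severe litters (-0.49, FDR = 0.0605). The other 5 skeletal muscle genes did not pass in either line, and Tnnt3 had 0.29 in mild line hearts (FDR = 0.0685 by limma). The median log2 fold change of the 6 was 0.04 in mild line hearts and -0.02 in severe line hearts. In the mean of the list, every severe line heart lay below every wild type heart, while mild line hearts overlapped wild type. The part of Tnni2 in that lower mean was not tested. Wild type replicate 1 of the severe litters stood apart from the other wild type arrays at Itga7 and Flnc below.

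Each line was compared with the 6 wild type hearts in limma, and FDR stands for the p-value after Benjamini-Hochberg adjustment over all features, with 0.05 as the threshold. Of the 9 features, Cav3 alone passed the test in mild line hearts, where it was lower, at 0.776 times the wild type level. Over all features 3.55% passed in that comparison and 1.93% passed as lower. The severe line had 0 of 9 past the test (3.3% of all features passed), with 1 of 9 at an unadjusted p under 0.05, as against 13.5% of all features. In the mild line 2 of 9 had an unadjusted p under 0.05, as against 12.3% of all features. The methods' rule, which asks for a 2-fold change, was met by 0 of the 9 in either line (0.269% of all features in mild line hearts and 0.136% in the severe line). The median log2 fold change of the 9 features was 0.05 in mild line hearts and 0.0086 in severe line hearts, and over all features it was 2.5e-05 and -0.00045.

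**Figure D1:**
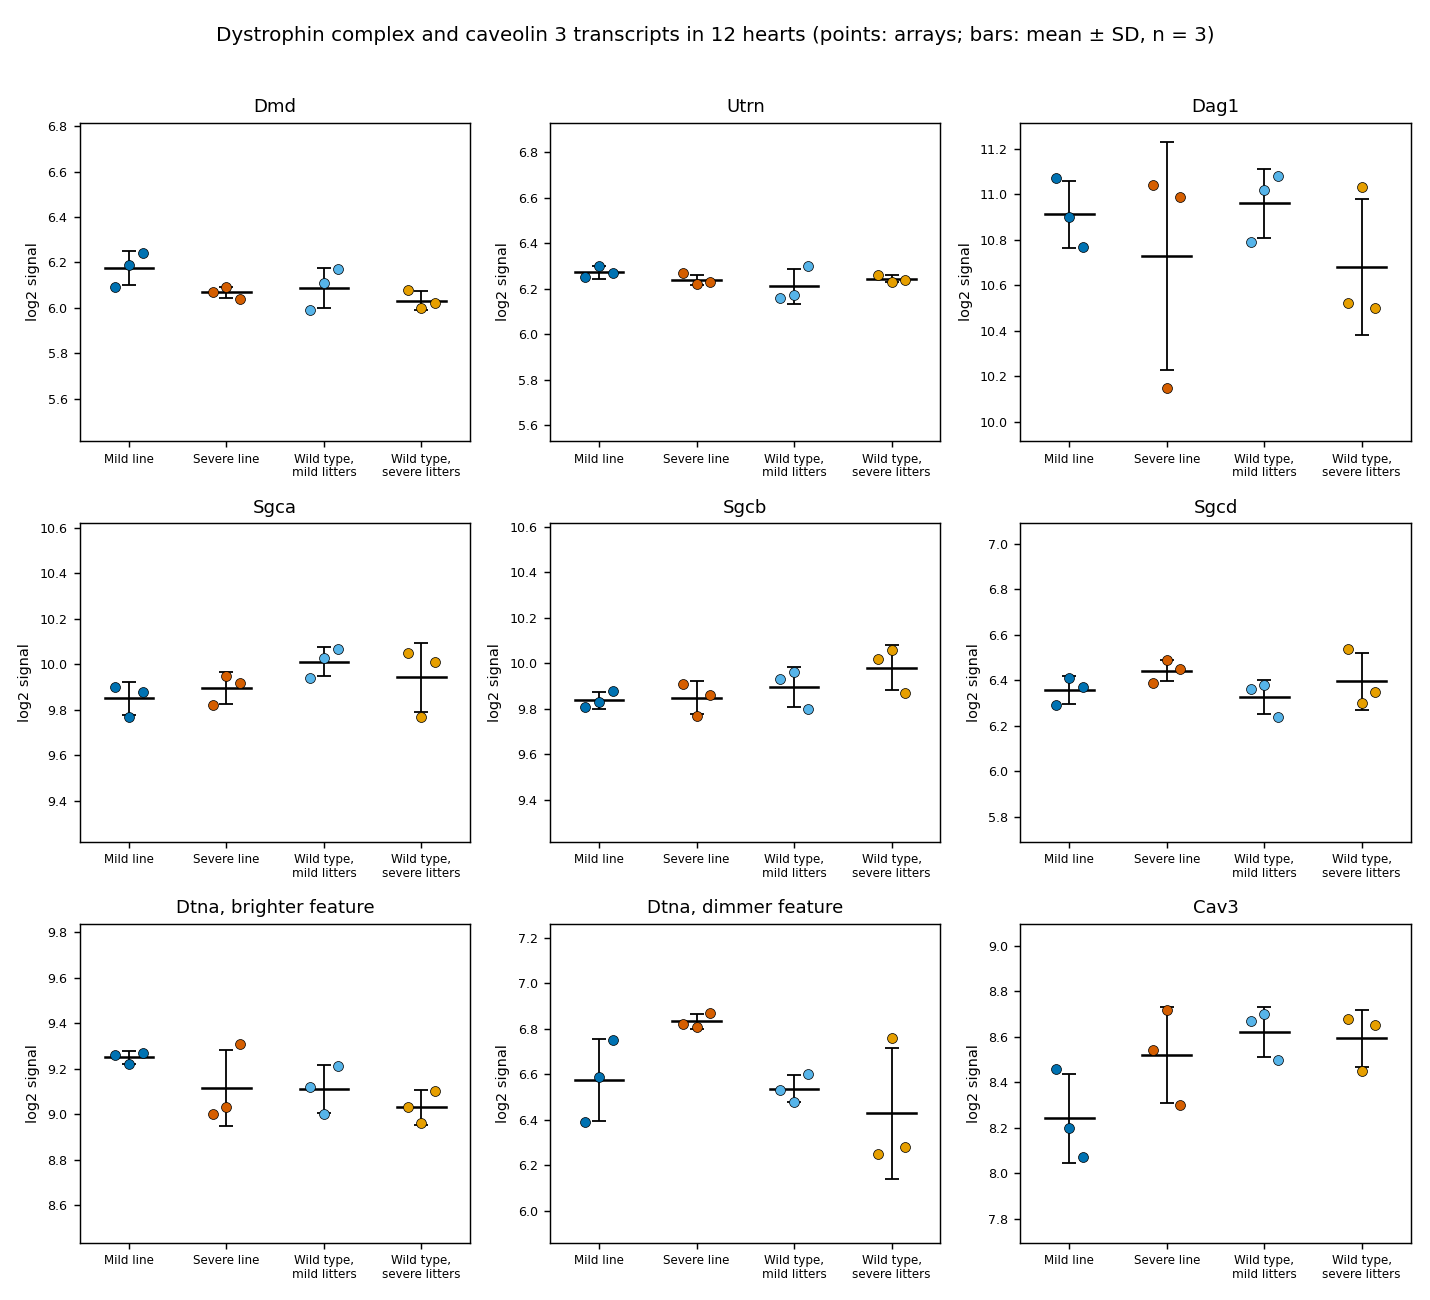
Log2 signal of the 9 features on 12 arrays, in groups of 3: mild line, severe line, wild type of mild litters and wild type of severe litters. Each point is 1 heart, and the bars give the mean ± SD; every panel spans the same range of log2 units. Cav3 in mild line hearts, at 8.07 to 8.46, and the dimmer Dtna feature in severe line hearts, at 6.81 to 6.87, are the groups that lie farthest from wild type.

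Dmd encodes dystrophin. Its single feature gave log2 signals of 6.09, 6.19 and 6.24 in mild line hearts and of 6.07, 6.09 and 6.04 in severe line hearts, and in wild type the lowest, the median and the highest were 5.99, 6.05 and 6.17. All 12 arrays lay below the median of all features, and both lines overlapped wild type. The log2 fold change was 0.12 in mild line hearts (SE 0.065, 95% interval -0.02 to 0.25, FDR = 0.523) and 0.0086 in severe line hearts (SE 0.065, interval -0.13 to 0.14, FDR = 0.979).

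The 250 bases before the Dmd start that lies farther upstream of the 2 in the RefSeq table (GRCm38.p6, chrX:82948620-82948869, plus strand) are shown because they hold the one CArG box, the binding motif of serum response factor, a regulator of muscle genes, among the windows of these genes. The box is in capitals; it reads as a CArG box on both strands, and its first base lies 98 bases before the start.
Dmd: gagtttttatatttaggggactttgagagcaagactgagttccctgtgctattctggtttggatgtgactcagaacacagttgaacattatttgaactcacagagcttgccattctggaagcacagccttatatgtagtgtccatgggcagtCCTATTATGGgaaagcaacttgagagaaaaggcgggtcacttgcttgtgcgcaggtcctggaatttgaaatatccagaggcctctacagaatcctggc
It was found in 1 of 9 windows of 7 of the genes, and in 1.47% of 32851 windows of the whole table. A match of letters is a description of the sequence only.

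Utrn encodes utrophin, a relative of dystrophin that can take its place at the membrane. It read 6.25, 6.30 and 6.27 in mild line hearts and 6.27, 6.22 and 6.23 in severe line hearts, against a lowest, median and highest of 6.16, 6.23 and 6.30 in wild type. Its standard deviation over the 12 arrays, 0.044, was at the 0.279th percentile of all features and the smallest of the set. The 5 IDs carry the same values. Their wild type mean lay near the median of all features, at percentile 47.2, so Utrn cannot be called present or absent. The small spread therefore does not show a steady transcript. Utrn's log2 fold change was 0.05 in mild line hearts (interval -0.08 to 0.17, FDR = 0.861) and 0.01 in severe line hearts (interval -0.11 to 0.14, FDR = 0.965). Utrn was thus not detectably different in either line.

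Dag1 encodes dystroglycan, whose precursor is cut into the outer and the membrane-spanning chain. Its feature was bright, with 11.07, 10.90 and 10.77 in mild line hearts, 11.04, 10.15 and 10.99 in severe line hearts, and 10.50, 10.90 and 11.08 as the lowest, median and highest in wild type. It varied most of the 9, with a standard deviation over arrays of 0.29 that was at the 97.7th percentile of all features. The low readings belonged to replicate 2 of the severe line and to wild type replicates 1 and 3 of the severe litters (10.52 and 10.50), so the spread crossed genotypes. Dag1 had a log2 fold change of 0.09 in mild line hearts (SE 0.17, interval -0.26 to 0.44, FDR = 0.907) and -0.09 in severe line hearts (SE 0.17, interval -0.45 to 0.26, FDR = 0.887). Without severe line replicate 2 the severe line's value was 0.20 and still did not pass the test. The 3 genes that followed Dag1 most closely over the 12 arrays were Rapgef5 (Pearson r = 0.95), Enpp4 (0.95) and Scaf4 (0.94), out of 10871 genes searched.

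The sarcoglycans form a subcomplex that spans the membrane beside dystroglycan. Sgca, the α-sarcoglycan gene, read 9.90, 9.77 and 9.88 in mild line hearts and 9.82, 9.95 and 9.92 in severe line hearts, against 9.77, 10.02 and 10.07 as the lowest, median and highest in wild type. Sgcb, the β-sarcoglycan gene, read 9.81, 9.83 and 9.88 in mild line hearts and 9.91, 9.77 and 9.86 in severe line hearts, against 9.80, 9.95 and 10.06 in wild type. Both lines had means a little under wild type for both genes, and every group overlapped the wild type range.

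For Sgca the log2 fold change was -0.13 in mild line hearts (interval -0.28 to 0.03, FDR = 0.544) and -0.08 in severe line hearts (interval -0.24 to 0.07, FDR = 0.722). For Sgcb it was -0.10 in mild line hearts (interval -0.25 to 0.04, FDR = 0.636) and -0.09 in severe line hearts (interval -0.23 to 0.06, FDR = 0.661). Both genes kept a negative sign in both lines under all alternatives tried, some of which could not change it. Neither gene passed the test in any, and the 2 lines share their 6 wild type hearts. Sgcd, the δ-sarcoglycan gene, sat near the median of all features, at 6.29, 6.41 and 6.37 in mild line hearts, 6.39, 6.49 and 6.45 in severe line hearts, and 6.24, 6.36 and 6.54 as the lowest, median and highest in wild type. Its log2 fold change was -0.0050 in mild line hearts (interval -0.15 to 0.14, FDR = 0.988) and 0.08 in severe line hearts (interval -0.07 to 0.23, FDR = 0.702). Of the bright pair, Sgca and Sgcb, the lowest bound of any interval was -0.28.

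Dtna encodes α-dystrobrevin, a cytoplasmic partner of dystrophin that is made in several splice forms. Its brighter feature, shared by 5 IDs, read 9.26, 9.22 and 9.27 in mild line hearts and 9.00, 9.03 and 9.31 in severe line hearts, against 8.96, 9.07 and 9.21 as the lowest, median and highest in wild type. All 3 mild line hearts lay above all 6 wild type hearts, by a narrow margin, and it was the one feature of 9 without overlap in that comparison (7.52% of all features had none). The log2 fold change of 0.18 (SE 0.077, interval 0.02 to 0.34) did not pass the test (FDR = 0.329), and the severe line's was 0.04 (interval -0.12 to 0.21, FDR = 0.888). Severe line replicate 3 was as high as the mild line, while the other 2 severe line hearts lay among wild type.

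The dimmer Dtna feature, a single ID (ILMN_1255355) annotated to another cDNA of the gene, read 6.39, 6.59 and 6.75 in mild line hearts and 6.82, 6.81 and 6.87 in severe line hearts. In wild type the lowest, median and highest were 6.25, 6.51 and 6.76. The 3 severe line hearts lay above every other array, and this was the one feature of 9 without overlap with wild type in severe line hearts (7.21% of all features had none). Its log2 fold change was 0.35 in severe line hearts (SE 0.10, interval 0.14 to 0.56), which did not pass the test (FDR = 0.0725), and 0.09 in mild line hearts (interval -0.12 to 0.31, FDR = 0.815). Without wild type replicate 2 of the severe litters, the highest wild type array, the severe line's value was 0.40 and passed (FDR = 0.0198). The raw intensities were 146.7 to 157.8 in severe line hearts, 112.7 to 132.5 in mild line hearts and 103.1 to 142.6 in wild type, on arrays whose raw medians were also highest in severe line hearts. The part of that overall brightness in the result was not tested beyond scaling each array to its median, which gave 0.30 (FDR = 0.182).

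The dimmer feature moved by 0.31 log2 units more than the brighter one in severe line hearts (interval 0.05 to 0.56, FDR = 0.271 over 3190 such pairs, of which 2.92% passed). In the mild line the dimmer feature's change was -0.09 relative to the brighter one's (interval -0.34 to 0.17, FDR = 0.887, with 3.32% of pairs past the test). A different change of the 2 Dtna features was thus not called in either line, and which splice forms they read is not known here.

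**Figure D2:**
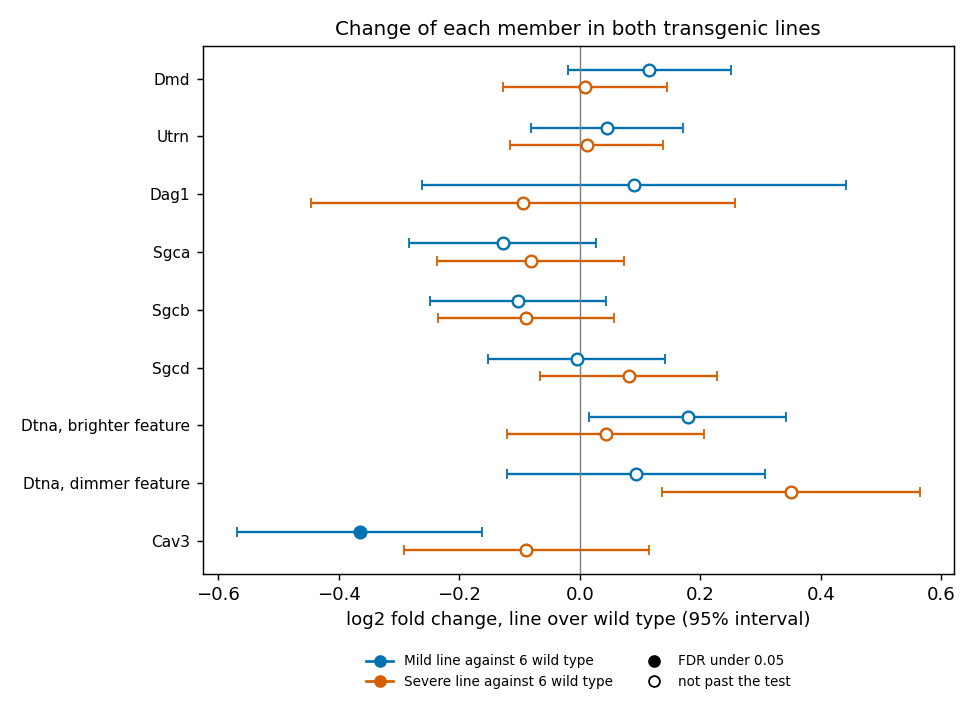
Log2 fold change over 6 wild type hearts, with its 95% interval, of each feature in mild line hearts (upper of each pair, 3 hearts) and the severe line (lower, 3 hearts). The single filled point is Cav3 in mild line hearts at -0.37; the dimmer Dtna feature in severe line hearts, at 0.35, has an interval clear of 0 but did not pass after adjustment over all features.

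Cav3, the caveolin 3 gene, gave log2 signals of 8.46, 8.20 and 8.07 in mild line hearts and of 8.54, 8.72 and 8.30 in severe line hearts. In wild type the lowest, median and highest were 8.45, 8.66 and 8.70. Mild line replicates 2 and 3 lay below all wild type hearts, while replicate 1 lay just above the lowest of them, and the severe line straddled the wild type range. The log2 fold change was -0.37 in mild line hearts (SE 0.097, interval -0.57 to -0.16, FDR = 0.0431 by limma) and -0.09 in severe line hearts (SE 0.097, interval -0.29 to 0.12, FDR = 0.783). In RNA of whole hearts, fewer cells that make a transcript and less of it per cell cannot be told apart.

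The fall of Cav3 stayed close to the threshold. Its sign was negative under all 23 alternatives, from -0.47 to -0.28, and the FDR ran from 0.0153 to 0.293. The signal filter, the trend and robust variances and the methods' threshold reuse the same group means, so they could not change the sign. The call ended without mild line replicate 2 (-0.34, FDR = 0.198) or 3 (-0.28, FDR = 0.293) and without severe line replicate 1 (-0.37, FDR = 0.0559). Among wild type hearts it ended on leaving out replicate 1 (-0.35, FDR = 0.0770) or 2 (-0.35, FDR = 0.0862) of the mild litters, or replicate 1 (-0.35, FDR = 0.0783) or 3 (-0.36, FDR = 0.0780) of the severe litters. Against the 3 littermates of its own line the value was -0.38 (FDR = 0.115), so the size of the change held within these litters and the call did not. The severe line's value changed sign once, to 0.02 without severe line replicate 3.

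**Figure D3:**
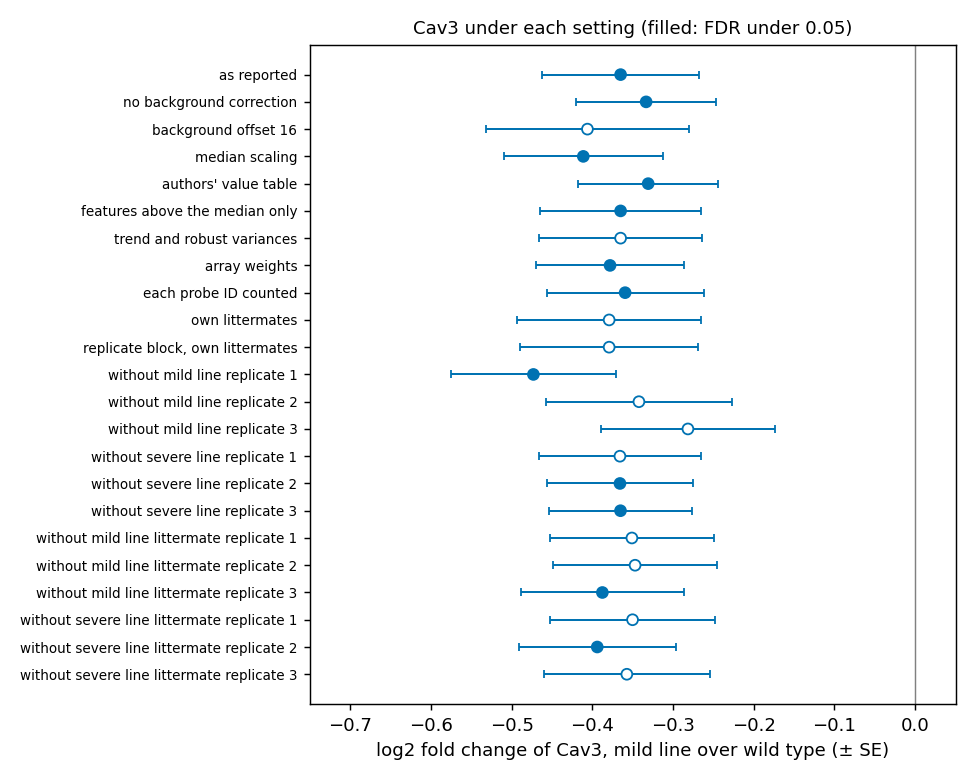
Log2 fold change of Cav3 in mild line hearts over wild type (± SE) as reported and under the alternatives, filled where the FDR was under 0.05. All values lie between -0.47 and -0.28, on the same side of 0, and filled and open points are mixed.

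Fibroblast markers were measured beside these genes. The mean log2 signal of 5 fibroblast genes (Col1a1, Col1a2, Col3a1, Dcn and Pdgfra), all of them above the median of all features, was 8.96 to 9.12 in mild line hearts, 9.03 to 9.08 in severe line hearts and 8.67 to 8.94 in wild type. All 6 transgenic hearts lay above all 6 wild type hearts in that mean, although 0 of the 5 genes passed limma's test in mild line hearts (3 had an unadjusted p under 0.05) and Col1a1 alone passed in severe line hearts (0.48, FDR = 0.0114). That call ended without severe line replicate 1 (0.42, FDR = 0.106) or 2 (0.46, FDR = 0.0515). Of the 5 cardiac muscle genes, Ryr2, the calcium release channel, was lower in both lines (-1.11, FDR = 3.96e-07 in mild line hearts, and -0.49, FDR = 0.00414 in the severe line), and the other 4 did not pass. 

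Of the smooth muscle markers, Acta2 was called lower in mild line hearts and higher in severe line hearts. The mean of 5 such genes (Myh11, Acta2, Tagln, Cnn1 and Smtn) was taken, of which 4 lay above the median of all features. This mean was 8.36 to 8.41 in mild line hearts, 8.66 to 8.81 in severe line hearts and 8.37 to 8.65 in wild type. All 3 severe line hearts thus lay above the other arrays, the lowest of them by a narrow margin. Acta2, the smooth muscle actin, read 11.98 to 12.06 in mild line hearts (-0.55, FDR = 0.0159) and 12.99 to 13.44 in severe line hearts (0.62, FDR = 0.00813), against 12.27 to 12.84 in wild type. The mild line's call ended without any 1 of its 3 replicates (-0.57 to -0.53) and against its own littermates (-0.32, FDR = 0.111), and the severe line's without its replicate 3 (0.50, FDR = 0.0782) and with median scaling (0.45, FDR = 0.0546). Tagln, transgelin, was higher in severe line hearts, at 6.84 to 7.28 against 6.20 to 6.43 in wild type (0.70, FDR = 6.28e-05), and had 0.13 in mild line hearts (FDR = 0.623). The other 3 markers did not pass in either line. In severe line hearts Myh11 had 0.04, Cnn1 -0.03 and Smtn -0.07, and in mild line hearts they had 0.09, -0.06 and -0.14. The lists for endothelium (5 genes measured), macrophages (4), red blood cells (2), Schwann cells (1) and adipose tissue (3) had 0 genes past limma's test in both lines. Of these genes, 3 had an unadjusted p under 0.05 in mild line hearts and 4 in severe line hearts. The Schwann cell gene lay below the median of all features, and lists this short say little about those cells. The part of any of these shifts in the results for Cav3 and the genes below was not tested.

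The 250 bases before the Cav3 start in the RefSeq table (GRCm38.p6, chr6:112459255-112459504, plus strand) are shown as the upstream sequence of the one gene of the set that passed the test. Capitals mark the motif CANNTG, the E-box read by muscle regulatory factors, which is its own reverse complement, so both strands are covered; its matches begin 174 bases (CATGTG) and 106 bases (CAGCTG) before the start.
Cav3: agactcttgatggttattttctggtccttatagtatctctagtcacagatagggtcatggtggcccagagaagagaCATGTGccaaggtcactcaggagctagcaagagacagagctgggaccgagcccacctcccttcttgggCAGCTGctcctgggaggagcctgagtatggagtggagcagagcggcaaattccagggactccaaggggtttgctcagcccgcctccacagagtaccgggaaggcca
CANNTG was found in 7 of 9 windows of these genes and in 66.2% of all windows.

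Between the lines, 0 of the 9 features passed limma's test (1.37% of all features passed), and 2 of 9 had an unadjusted p under 0.05, as against 12.4% of all features. These were Cav3, lower in the mild than in severe line hearts by 0.28 (interval -0.51 to -0.04, FDR = 0.300), and the dimmer Dtna feature, lower by 0.26 (interval -0.50 to -0.01, FDR = 0.377). A fall of Cav3 that is particular to the mild line was thus not shown. Between wild type hearts of mild litters and of severe litters, 0 of 9 passed limma's test (0.0875% of all features passed) and 0 had an unadjusted p under 0.05, as against 9.97% of all features. The widest gap was at Dag1, higher by 0.28 in the mild litters (interval -0.11 to 0.67, FDR = 0.654).

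Over the 12 arrays, the genes whose signal ran closest to that of Cav3 were Ephb4 (Pearson r = 0.92), Dctn6 (0.91) and Spata2l (0.91). For the brighter Dtna feature they were Popdc3 (0.92), Atf3 (0.91) and Ier3 (0.89), and for Dmd Mpdz (0.93), Gstm2 (0.90) and Spc25 (0.90). Utrn was nearest to Ethe1 (0.81), Zfp248 (0.79) and Mtmr9 (0.78), and Sgca to Palm (0.89), Apip (0.88) and Hlcs (0.85). Sgcb was nearest to Osbpl8 (0.89), Psmb11 (0.89) and Phf3 (0.88), and Sgcd to Pi4kb (0.89), Spryd3 (0.88) and Snd1 (0.88). These are the highest of 10871 correlations each, over arrays that share their normalization, and are given as a description. The highest r between 2 of the 9 features was 0.61, for Dmd and Utrn, and Sgca and Cav3 followed at 0.55.

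Genes that act with the complex were taken from lists by role, each by its brightest feature, and are set beside the 3.55% of all features past the test in mild line hearts and 3.3% in severe line hearts. At an unadjusted p under 0.05 these shares were 12.3% and 13.5%. Of 9 other genes of the complex that were measured (Sgce, Sgcz, Sspn, Sntb1, Sntb2, Sntg1, Sntg2, Dtnb and Nos1), limma called 0 in both lines, with 1 and 0 at an unadjusted p under 0.05. Their median log2 fold change was 0.05 in mild line hearts and 0.0091 in severe line hearts. Of 13 genes with a direct or indirect part in the glycosylation of dystroglycan, such as Pomt1 and Dolk, limma also called 0 in both lines. An unadjusted p under 0.05 was seen for 4 in mild line hearts and 2 in severe line hearts. Their log2 fold changes ran from -0.23 to 0.22 in mild line hearts and from -0.19 to 0.17 in severe line hearts. The glycosylation genes thus showed no call.

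Of 6 ligands of dystroglycan and its partners in the matrix, Bgn passed the test in both lines and the other 5 in neither. An unadjusted p under 0.05 was met by 1 of the 6 in mild line hearts and 3 in severe line hearts. Bgn encodes biglycan, a matrix proteoglycan that binds dystroglycan and the sarcoglycans. It read 13.08, 13.40 and 13.31 in mild line hearts and 13.59, 13.36 and 13.33 in severe line hearts, against 12.73 to 13.01 in wild type, with no overlap. Bgn's log2 fold change was 0.41 in mild line hearts (SE 0.088, FDR = 0.0110) and 0.57 in severe line hearts (SE 0.088, FDR = 6.73e-04). The mild line's call ended without mild line replicate 2 (0.34, FDR = 0.113) or 3 (0.39, FDR = 0.0677), and against its own littermates alone (0.40, FDR = 0.0508). Bgn moved in the same direction as the fibroblast mean given above, whose part in its change was not tested. Lama2, the laminin α2 chain, had 0.02 in mild line hearts (FDR = 0.968) and -0.03 in severe line hearts (FDR = 0.937).

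Of 11 genes of the caveolae, 1 passed in each line, with 5 at an unadjusted p under 0.05 in mild line hearts and 3 in severe line hearts. Cavin2, a coat protein of caveolae, read 11.35, 11.42 and 11.33 in mild line hearts, 11.42, 11.51 and 11.39 in severe line hearts and 11.55 to 11.66 in wild type. All 6 transgenic hearts lay below all wild type hearts. Its log2 fold change was -0.24 in mild line hearts (SE 0.061, FDR = 0.0342) and -0.16 in severe line hearts (SE 0.061, FDR = 0.204). The mild line's call ended without any 1 of its 3 replicates (-0.23, -0.26 and -0.22 without replicates 1, 2 and 3), on leaving out wild type replicate 1 (-0.23) or 2 (-0.24) of the mild litters, and on leaving out wild type replicate 3 of the severe litters (-0.23). It also ended against its own littermates (-0.23, FDR = 0.130). Cavin2 passed in severe line hearts once each array was scaled to its median (-0.32, FDR = 0.0287), a setting in which the mild line did not (-0.28, FDR = 0.0675).

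Cavin3, another coat protein, was higher in severe line hearts, at 9.94, 9.78 and 9.58, against 9.29 to 9.49 in wild type (0.40, SE 0.080, FDR = 0.00640). The mild line read 9.71, 9.62 and 9.50, also above every wild type heart, and had 0.25 (FDR = 0.123). The severe line's call ended without its replicate 1 (0.32, FDR = 0.0836) and with median scaling (0.27, FDR = 0.144). Cavin4, the muscle cavin that joins caveolin 3 in muscle caveolae, had 0.34 in mild line hearts (FDR = 0.0647) and 0.04 in severe line hearts (FDR = 0.923). The other caveolins did not follow Cav3 past the test: Cav1 had -0.08 in mild line hearts (FDR = 0.856) and Cav2 had -0.19 (FDR = 0.408).

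Of 8 genes of membrane repair, 2 passed in mild line hearts and 3 in severe line hearts, with 3 and 6 at an unadjusted p under 0.05. Dysf encodes dysferlin, a sensor of membrane damage that binds caveolin 3. It read 8.91, 8.90 and 8.84 in mild line hearts and 9.06, 9.07 and 9.00 in severe line hearts, against 9.09 to 9.36 in wild type. Its log2 fold change was -0.32 in mild line hearts (SE 0.070, FDR = 0.0129) and -0.15 in severe line hearts (SE 0.070, FDR = 0.337). The mild line's call ended without mild line replicate 2 (-0.32, FDR = 0.0606) or 3 (-0.29, FDR = 0.0840) and against its own littermates (-0.25, FDR = 0.117). Dysf and Cav3 were thus both called lower in mild line hearts, and neither differed between the lines by the test (-0.16, FDR = 0.434 for Dysf).

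Of 4 annexins, which bind membranes in the presence of calcium, limma called Anxa5 in both lines and Anxa2 in severe line hearts, each as higher. Anxa6 had -0.23 in mild line hearts (FDR = 0.281) and -0.27 in severe line hearts (FDR = 0.155), and Anxa1 had 0.13 in mild line hearts (FDR = 0.460) and -0.20 in severe line hearts (FDR = 0.144), none of which passed. Anxa5 read 11.79, 11.74 and 11.60 in mild line hearts and 11.94, 12.03 and 12.02 in severe line hearts, against 11.17 to 11.48 in wild type. It was higher by 0.36 in mild line hearts (SE 0.078, FDR = 0.0115) and by 0.65 in severe line hearts (SE 0.078, FDR = 5.95e-05). The mild line's call ended without its replicate 1 (0.32, FDR = 0.0869) or 2 (0.34, FDR = 0.0785). Anxa2 was higher in severe line hearts by 0.34 (SE 0.073, FDR = 0.0123), a call that ended without severe line replicate 1 (0.30, FDR = 0.104) or 3 (0.33, FDR = 0.0557), and with median scaling, where the value was 0.19. Myof, which encodes myoferlin, a relative of dysferlin, read 7.15, 7.26 and 7.28 in severe line hearts, against 6.71 to 6.87 in wild type (0.46, SE 0.063, FDR = 2.05e-04). In the mild line Myof had 0.04 (FDR = 0.871). Trim72, a muscle protein of repair patches that also binds caveolin 3, had 0.14 in mild line hearts (FDR = 0.744) and 0.09 in severe line hearts, neither of which passed.

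**Figure D4:**
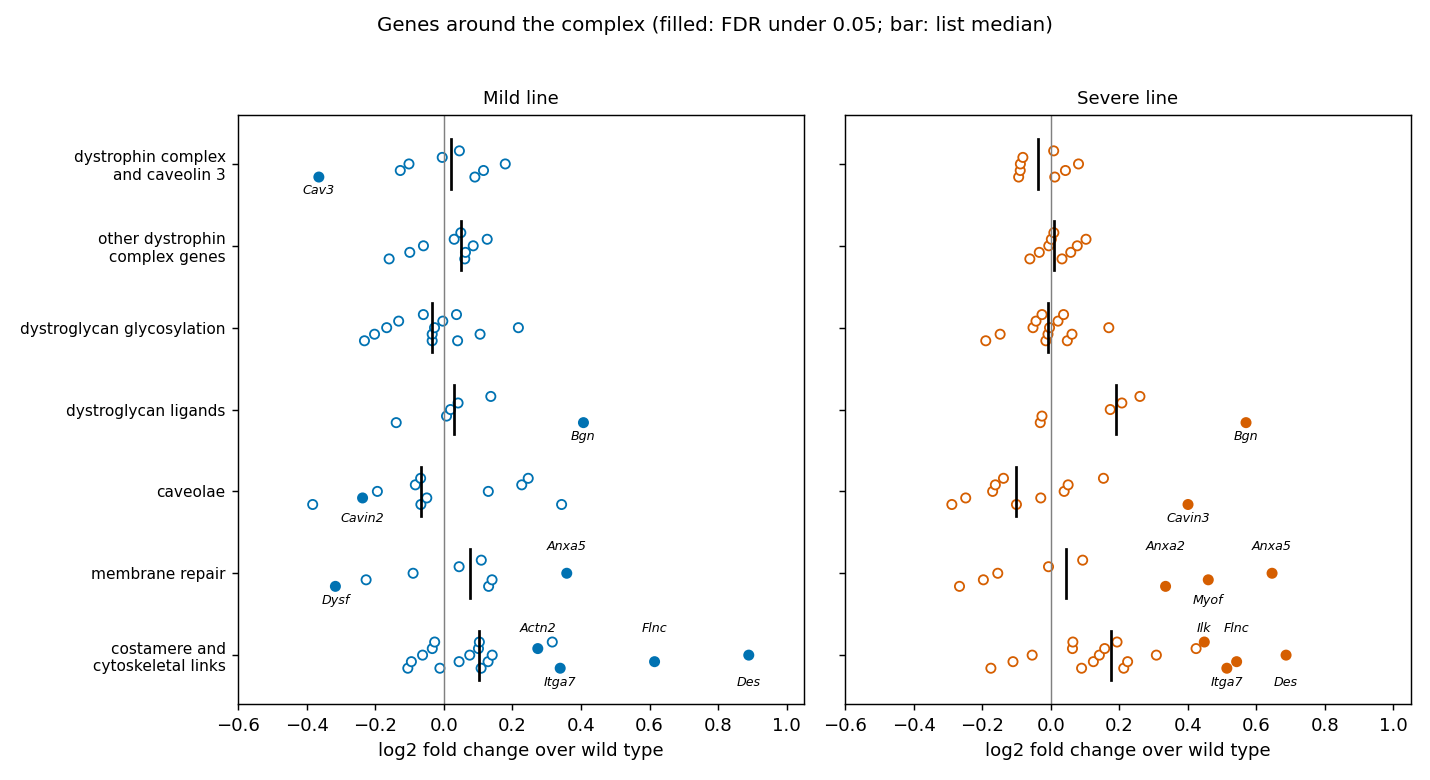
Log2 fold change over wild type of each measured gene of 7 lists in mild line hearts (left) and the severe line (right), each gene by its brightest feature, with points spread vertically for legibility. Filled points had an FDR under 0.05 and are named, and the bar is the median of the list. Cav3 at -0.37 in mild line hearts is the one filled point of the core genes. The other genes of the complex and the glycosylation genes have none. The calls of the largest size are in the costamere list, with Des at 0.89 and 0.69.

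Of 18 genes of the costamere, the rib of the muscle membrane where the sarcomere is anchored beside the dystrophin complex, 4 were higher in mild line hearts and 4 in severe line hearts, and none was called lower by limma. An unadjusted p under 0.05 was met by 4 of the 18 in mild line hearts and 10 in severe line hearts. The median log2 fold change of the list was 0.10 in mild line hearts and 0.18 in severe line hearts. Des encodes desmin, the intermediate filament of muscle. It read 13.69, 13.89 and 13.78 in mild line hearts and 13.76, 13.49 and 13.50 in severe line hearts, against 12.74 to 13.20 in wild type, and was higher by 0.89 (SE 0.094, FDR = 7.94e-06) and by 0.69 (SE 0.094, FDR = 2.02e-04). Both calls held under every alternative but the 2-fold threshold of the methods.

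Flnc encodes filamin C, which crosslinks actin and binds sarcoglycans. It read 10.00, 10.32 and 10.15 in mild line hearts and 10.09, 10.15 and 10.02 in severe line hearts, and wild type spanned 9.35 to 10.03. The high wild type value belonged to wild type replicate 1 of the severe litters, and the other 5 lay at 9.35 to 9.52. Flnc was higher by 0.61 in mild line hearts (FDR = 0.00311) and by 0.54 in severe line hearts (FDR = 0.0108). Without that wild type array the mild line's value was 0.71 (FDR = 1.49e-05). The severe line's call ended without severe line replicate 1 (0.54, FDR = 0.0614) or 2 (0.51, FDR = 0.0540) and against its own littermates (0.48, FDR = 0.0735).

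Itga7, the laminin-binding integrin α7 of muscle, read 9.66, 9.88 and 9.78 in mild line hearts and 9.97, 9.98 and 9.90 in severe line hearts, against 9.27 to 9.68 in wild type. It was higher by 0.34 in mild line hearts (FDR = 0.0198) and by 0.51 in severe line hearts (FDR = 6.89e-04), and the mild line's call ended without its replicate 2 (0.28, FDR = 0.168) or 3 (0.34, FDR = 0.0829). Ilk, the integrin-linked kinase, was higher in severe line hearts by 0.45 (FDR = 0.00626), which did not pass without severe line replicate 1 (0.42, FDR = 0.0553), against its own littermates (0.36, FDR = 0.0589) or with median scaling (0.32, FDR = 0.0678). Actn2, the α-actinin of the Z disc, was higher in mild line hearts by 0.27 (FDR = 0.0420). That call ended without mild line replicate 1 (0.28) or 2 (0.21), severe line replicate 3 (0.27), wild type replicate 1, 2 or 3 of the mild litters (0.26, 0.26 and 0.27) or wild type replicate 1 or 3 of the severe litters (0.28 and 0.27), and with median scaling (0.27, FDR = 0.10). Desmin, filamin C and integrin α7 transcripts were thus called higher in both lines. Of the 9 features of the dystrophin complex and Cav3, 0 were called higher in either line. Over all features 3.55% passed in mild line hearts and 3.3% in severe line hearts, counting both directions, and 1.93% passed as lower in mild line hearts. With shares this small, 0 of 9 does not set these features apart from all features. The costamere genes and the 9 features were not compared by a test.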

How the data were processed

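Total RNA of 12 whole hearts was hybridized to Illumina arrays. The deposited raw intensity at each probe ID is a summary exported by the authors, not normalized between arrays. IDs of 1 gene often share it, so it need not be the reading of a single probe. The submitters' processing notes name GenomeStudio and limma without versions. A second table of the authors gives deposited log2 values that they background corrected and quantile normalized. Ranks within an array were the same in both (Spearman correlation 1). Symbols came from the platform annotation.

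In R 4.3.3, after leaving out 6 lines with no ID, limma 3.58.1 was used for normal-exponential background correction (offset 50) and quantile normalization of the raw intensities, followed by log2. Rows with the same values throughout were joined. Means of the mild line (3 arrays), severe line (3) and pooled wild type (6) were fitted over 30854 features with empirical Bayes variances, and both kinds of litters were compared in a fit of 4 groups. FDR values are Benjamini-Hochberg adjusted p-values over all features. The rule of the methods asks for 2-fold with either FDR under 0.05 or an unadjusted p under 0.001. The fit was tested on simulated data for the mild line, with changes set only in features above the median signal. There 30 of 100 changes of 1.25-fold and 88 of 100 changes of 1.5-fold were called. Smaller changes can thus be missed. With 3 arrays a group, precision is limited by the number of arrays.

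The genes and lists were chosen with earlier results of these data known. Named were all features of the 8 genes, every gene of the pathway lists past the test in a line (up to 6 per list by size), and the 3 genes most correlated with each gene's brightest feature among genes above the median signal. Cav1, Cav2, Cavin4, Lama2 and Trim72, genes that differed between the lines, and Ryr2, Col1a1, Acta2, Tagln, Tnni2 and Anxa6 were named after their values were seen. Genes of the lists with no probe under their symbol were not analysed here. Upstream sequences are RefSeq's (GRCm38.p6) and cover 7 of the 8 genes. Alternatives were the background correction and its offset, scaling, the authors' table, a signal filter, the variance model, array weights, unmerged IDs, own littermates, a replicate block, the threshold, and each array left out.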

Additional observations from a re-analysis of the deposited data

Results flagged for a closer look

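At Itga7, which encodes integrin α7, wild type replicate 1 of the severe litters read 9.68, far above the other 5 wild type hearts at 9.27 to 9.42. At Flnc, which encodes filamin C, the same array read 10.03, against 9.35 to 9.52 in the other 5. Of 28 features tested for such an extreme value over the same 6 wild type arrays, 2 had one. For a single test chance gives about 1 in 20, and these 28 tests share their arrays.

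By limma, 6 genes of the lists differed between the lines. Acta2 and Tagln, both smooth muscle markers, were lower in mild than in severe line hearts (-1.17, FDR = 1.73e-04 for Acta2 and -0.57, FDR = 0.00493 for Tagln). For Acta2, wild type hearts of mild litters lay at 12.27 to 12.41 and those of severe litters at 12.80 to 12.84 (-0.48, FDR = 0.0640, not past the test), and the Tagln call ended with own littermates (-0.53, FDR = 0.233). Myof was lower in the mild than in severe line hearts (-0.42, FDR = 0.00540), a call that ended when each line was set against its own littermates (-0.39, FDR = 0.233). Ryr2 was lower in mild line hearts (-0.62, FDR = 0.00493), with -0.53 and an FDR of 0.0704 under median scaling. Agrn, which encodes the dystroglycan ligand agrin, read 11.39, 11.34 and 11.23 in mild line hearts and 11.68, 11.88 and 11.60 in severe line hearts (-0.40, FDR = 0.0475), while wild type, at 11.32 to 11.63, overlapped both. The Agrn call ended without mild line replicate 1 (-0.43), 2 (-0.41) or 3 (-0.36), severe line replicate 1 (-0.42) or 2 (-0.32), wild type replicate 2 of the mild litters (-0.40) or wild type replicate 1 of the severe litters (-0.40), with own littermates (-0.37, FDR = 0.523) and with median scaling (-0.28, FDR = 0.311). Anxa1 read 6.94, 6.83 and 6.84 in mild line hearts and 6.55, 6.46 and 6.61 in severe line hearts (0.33, FDR = 0.0414), a call that ended without any 1 of these 6 arrays (0.29 to 0.36) and without wild type replicate 3 of the mild litters (0.33), with own littermates (0.34, FDR = 0.409) and with median scaling (0.34, FDR = 0.0579).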

How the results depend on the processing

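Of 615 values of the 9 features under 23 alternatives, 602 kept their side of the threshold. Of the rest, 12 were no longer past the test (all of them Cav3 in mild line hearts). The last, 1 value, was newly past it: the dimmer Dtna feature in severe line hearts without wild type replicate 2 of the severe litters. None reversed among called values, but 30 of the 602, all uncalled, changed sign. Cav3 in mild line hearts, the only result called at the start, kept its call in 11 of the 23 alternatives. All other results of the 9 features started uncalled, so their part of the 602 says little about stability. The signal filter, the trend and robust variances and the methods' threshold keep each value as it was, and so its sign. The count of features past the test in mild line hearts, 1 of 9, was 0 with an offset of 16, with trend and robust variances, with own littermates, with the replicate block and at the methods' threshold, and spanned 0 to 1 over arrays left out. In the severe line it was 0, and 0 to 1 over arrays left out. The counts between the lines, between the littermates and for the Dtna pair stayed at 0 in every setting run.

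Over all features, 1095 passed in mild line hearts and 1019 in severe line hearts, against 618 and 496 with an offset of 16, 2070 and 1961 with each ID counted, 721 in mild line hearts with own littermates and 83 and 42 at the methods' threshold. Leaving out an array lowered the mild line's count to 624 (mild line replicate 2) and the severe line's to 490 (severe line replicate 1). Between the lines 422 passed, and 76 to 725 under alternatives at the same threshold; between the littermates 27 passed, and 0 with an offset of 16.

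Among genes of the lists, an offset of 16 also ended the calls of Bgn (FDR = 0.0824), Anxa5 (FDR = 0.0976), Itga7 (FDR = 0.119), Tnni2 (FDR = 0.0572), Acta2 (FDR = 0.0725), Dysf (FDR = 0.101), Cavin2 (FDR = 0.239) and Actn2 (FDR = 0.220) in mild line hearts and of Cavin3 (FDR = 0.0604), Anxa2 (FDR = 0.111), Ilk (FDR = 0.0533), Flnc (FDR = 0.0591), Col1a1 (FDR = 0.0615) and Tnni2 (FDR = 0.105) in severe line hearts, and of Agrn (FDR = 0.191) and Anxa1 (FDR = 0.0900) between the lines, with directions kept. Tnni2 in severe line hearts also missed the threshold with no background correction (FDR = 0.0515) and in the authors' table (FDR = 0.0544), and in mild line hearts with own littermates (-0.42, FDR = 0.161). Trend and robust variances also ended Cavin2 (FDR = 0.0728) and Actn2 (FDR = 0.0524) in mild line hearts and Agrn (FDR = 0.0610) and Anxa1 (FDR = 0.0501) between the lines, and own littermates ended Anxa2 in severe line hearts (0.31, FDR = 0.0714). Median scaling also ended Anxa5 in mild line hearts (0.32, FDR = 0.153) and Col1a1 in severe line hearts (0.36, FDR = 0.110).

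Replicate numbers gave no sign of pairing the hearts. Deviations of arrays with the same number correlated at -0.24 to 0.06, and those with different numbers at -0.11 to 0.20. With 6 pairs of the same number, and deviations taken within groups of 3, this cannot decide whether the hearts were paired. With the replicate block Cav3 had -0.38 in mild line hearts (FDR = 0.147), and 622 and 534 features passed in the mild and the severe line. Under the block Bgn, Itga7, Dysf, Cavin2, Actn2, Tnni2 and Acta2 in mild line hearts and Ryr2 (-0.35, FDR = 0.0747), Cavin3, Anxa2, Ilk, Flnc and Acta2 in severe line hearts did not pass either, nor did Acta2 (-0.69, FDR = 0.0619), Tagln, Agrn, Anxa1 and Myof between the lines.

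The dim features (Dmd, Utrn, Sgcd and the dimmer Dtna) lie near the median of all features, and the dimmer Dtna feature spanned 0.26 to 0.54 in severe line hearts.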
